A study of Homo sapiens with 9 samples.

Results

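The genes described here encode the heat shock proteins, their DNAJ partners, the subunits of the CCT chaperonin and the heat shock factors HSF1 and HSF2. They were chosen by symbol from the protein-coding genes of an expression table, with pseudogenes left out, if their mean over 9 libraries was at least 1 FPKM (fragments scaled to the length of the gene and the size of the library). Of 36810 genes in the table, 84 protein-coding genes carried such a symbol, and 64 of them reached that mean. The other 20 did not. Just inside the limit were DNAJC27 with a mean of 1.28 FPKM and HSPA1B with 1.49 FPKM, and just outside it were HSPA12A with 0.933 FPKM and HSPA1A with 0.701 FPKM. HSPBP1, a nucleotide exchange factor of HSP70, and HSPBAP1, named for binding a small heat shock protein, entered by their symbols alone and are not chaperones of these families.

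RNA came from 143B, an established line of human osteosarcoma cells, a malignant bone tumour, kept in RPMI-1640 medium with fetal bovine serum and antibiotics. Libraries were made from control cells at 0 h without XD23 and from cells given 0.5 µM XD23, a compound named only by this code, for 24 h or for 48 h, with 3 libraries in each group. No vehicle and no untreated culture of 24 h or 48 h is named, so the compound and the time in culture cannot be told apart. Separate cultures for the 3 libraries of a group are not stated either, so every p-value measures the spread between these libraries, which may be technical.

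The libraries held 18341542 to 22901830 fragments, and the 64 genes together took 1.081% to 1.178% of the summed FPKM. The third 24 h library stood apart from the other 8 on the second principal component, at -24.7 against -6.96 to 9.06. In it, 15 of the 64 genes lay above and 13 below the range of the other 8 libraries. Because all 9 libraries share 1 estimate of the spread, calls among the 64 genes that change without that library are given both ways. Of the 7 markers of the mesenchymal and osteoblast lineage, VIM, SPARC, FN1 and RUNX2 were present in every library, whereas COL1A1 did not exceed 0.703 FPKM, COL1A2 0.055 FPKM and ALPL 0.171 FPKM. The epithelial marker EPCAM stood at 2.50 to 4.69 FPKM over the libraries, and the endothelial marker PECAM1 at 0.215 to 0.699 FPKM. The epithelial marker KRT19, the haematopoietic markers PTPRC and CD14 and the endothelial markers VWF and CDH5 did not exceed 0.176 FPKM in any library. CDH1, listed as epithelial, and CD3E, listed as haematopoietic, matched no gene by symbol.

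Chaperones bind proteins that are not yet folded or have lost their fold. HSP70 proteins do so in cycles driven by ATP that DNAJ proteins start and exchange factors of the HSP110 family complete, HSP90 proteins finish the folding of kinases and receptors, small heat shock proteins hold unfolded clients, and the CCT ring folds actin and tubulin inside a closed chamber. Each compartment has its own set: the mitochondrial matrix uses HSPA9 with the chamber of HSPD1 and HSPE1, and the endoplasmic reticulum (ER) uses HSPA5 and HSP90B1. The cytosolic set is switched on by the heat shock factor HSF1, which binds heat shock elements, and the ER set by the unfolded protein response, which acts on ER stress response elements.

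These 2 kinds of element were searched in the promoters, and some of the promoters that hold one are shown before the values. RefSeq promoter windows of GRCh38.p14, from 250 bases before to 50 bases after an annotated start, were matched by symbol for 58 of the 64 genes. The heat shock element was searched as GAA, TTC and GAA in a row, parted each time by any 2 bases, and the ER stress response element as CCAAT and CCACG parted by any 9 bases, both on either strand. Overlapping matches of the heat shock element were all kept. An exact heat shock element stood in the windows of 6 of the 58 genes (10.34%), against 166 of all 27305 genes (0.608%). With up to 1 mismatch in its 9 fixed letters it stood in 15 of the 58 genes (25.86%), against 7.596% of all genes. An exact ER stress response element stood in 2 of the 58 genes (3.45%), HSPA5 and HSP90B1, against 0.092% of all genes. A match describes the letters of the window and is not evidence that a factor binds there. The exact matches to the heat shock element are given here in capitals, as read on the strand of the gene, 1 for each gene:
DNAJA1: GAACTTTCCAGAA
DNAJB6: GAACCTTCGCGAA
HSP90AA1: TTCCGGAAGGTTC
HSP90AB1: TTCTGGAAGCTTC
HSPA8: TTCTGGAAGGTTC
HSPD1: GAAAGTTCTGGAA

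For the most abundant cytosolic HSP70 and for the inducible HSP90, the 250 bases before the start are shown with the exact heat shock elements in capitals. The HSPA8 stretch lies at chr11:123062137-123062386 and that of HSP90AA1 at chr14:102087045-102087294, both on the minus strand of GRCh38.p14.
HSPA8: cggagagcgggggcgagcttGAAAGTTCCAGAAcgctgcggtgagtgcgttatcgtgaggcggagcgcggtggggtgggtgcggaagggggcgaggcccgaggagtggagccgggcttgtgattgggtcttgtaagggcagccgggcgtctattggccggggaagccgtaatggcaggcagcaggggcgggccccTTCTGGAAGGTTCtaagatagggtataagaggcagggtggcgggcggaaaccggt
HSP90AA1: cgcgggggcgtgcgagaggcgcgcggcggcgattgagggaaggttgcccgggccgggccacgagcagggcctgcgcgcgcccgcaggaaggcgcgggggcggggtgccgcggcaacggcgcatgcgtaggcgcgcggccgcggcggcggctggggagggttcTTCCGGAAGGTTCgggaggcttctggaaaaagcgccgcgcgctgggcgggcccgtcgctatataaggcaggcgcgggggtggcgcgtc
The matches lie 230 and 55 bases before the start of HSPA8, counted to their first base, and 88 bases before that of HSP90AA1.

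The ER pair is shown in the same way, with the exact ER stress response elements in capitals, at chr9:125241344-125241593 on the minus strand for HSPA5 and at chr12:103930160-103930409 on the plus strand for HSP90B1.
HSPA5: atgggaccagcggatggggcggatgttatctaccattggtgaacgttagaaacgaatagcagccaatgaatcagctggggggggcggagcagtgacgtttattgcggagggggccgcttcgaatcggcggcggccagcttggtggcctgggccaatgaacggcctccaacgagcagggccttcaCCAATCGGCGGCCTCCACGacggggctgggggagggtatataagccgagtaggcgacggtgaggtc
HSP90B1: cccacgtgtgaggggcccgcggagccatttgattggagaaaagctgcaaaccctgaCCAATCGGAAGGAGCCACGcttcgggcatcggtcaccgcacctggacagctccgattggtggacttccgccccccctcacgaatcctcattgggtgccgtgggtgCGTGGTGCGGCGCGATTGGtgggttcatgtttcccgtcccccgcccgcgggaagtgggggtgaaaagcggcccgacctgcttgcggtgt

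HSPD1 and HSPE1, whose proteins form 1 chamber, are transcribed away from each other from a shared promoter, and the 104 bases between their annotated starts are shown because the pair is described together. They lie at chr2:197500275-197500378 and are written on the plus strand, the strand of HSPE1.
HSPD1 to HSPE1: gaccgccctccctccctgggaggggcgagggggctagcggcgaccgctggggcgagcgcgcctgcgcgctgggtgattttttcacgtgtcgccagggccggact
The heat shock element of HSPD1 listed above belongs to the window of another annotated start of that gene.

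After 48 h with XD23 most chaperones of the mitochondrion and most subunits of CCT were lower than in control cells, whereas the cytosolic HSPB1, DNAJB1, DNAJA1 and HSPH1 were higher. The ER set showed few calls, and the HSP90 genes and both heat shock factors none. In all, 10 of the 64 genes rose, 19 fell and 35 were not called in limma's test on log2(FPKM + 1), with Benjamini-Hochberg adjustment over 13657 genes and a call at an adjusted p under 0.05. Errors are standard errors beside log2 fold changes and SD over 3 libraries beside FPKM, ratios and shares. All 64 passed the filter on low values, at least 1 FPKM in 3 libraries. Among all genes tested 28.5% were called, 13.3% higher and 15.2% lower, and among the protein-coding ones 32.0%, 15.7% higher and 16.2% lower. The share of the 64 called was 45.31%, and their median log2 fold change was -0.07, against -0.02 over all genes. The 3 libraries of each group did not overlap in 17 genes that lay higher and 29 that lay lower, which among all genes held for 50.4%, 22.7% higher and 27.7% lower. In bulk RNA, fewer cells of a type and less RNA per cell cannot be told apart. Lineage markers differed between the same groups. VIM lay at 347 to 374 FPKM at 48 h and 297 to 311 FPKM in control, SPARC at 27.6 to 28.5 FPKM at 48 h and 40.1 to 43.3 FPKM in control, and RUNX2 at 4.06 to 4.26 FPKM at 48 h and 6.02 to 6.61 FPKM in control. The 7 mesenchymal and osteoblast markers summed to 393 to 419 FPKM at 48 h and 358 to 369 FPKM in control, with 1 marker above and 3 below all controls. Of the 2 epithelial markers EPCAM was lower, at 2.50 to 2.98 FPKM at 48 h and 3.52 to 4.29 FPKM in control, and of the 3 endothelial markers PECAM1 was higher, at 0.611 to 0.699 FPKM at 48 h and 0.354 to 0.437 FPKM in control. The 2 haematopoietic markers summed to at most 0.095 FPKM at 48 h and 0.089 FPKM in control. The part of these differences in the chaperone results was not tested.

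The split depended on scaling, with 13 higher and 13 lower under median-of-ratios scaling. Over all genes that scaling gave 2030 higher and 1788 lower (28.0% called), against 1811 higher and 2080 lower in the main test. The split also depended on the third 24 h library, without which 12 rose and 24 fell and 37.6% of all genes were called. It shrank without other libraries. The number that fell was 9 without the first control library, without the third control library or without the second 48 h library, and 12 without the second control library or without the first 48 h library. In these fits 18.9% to 21.5% of all genes were called.

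**Figure D1:**
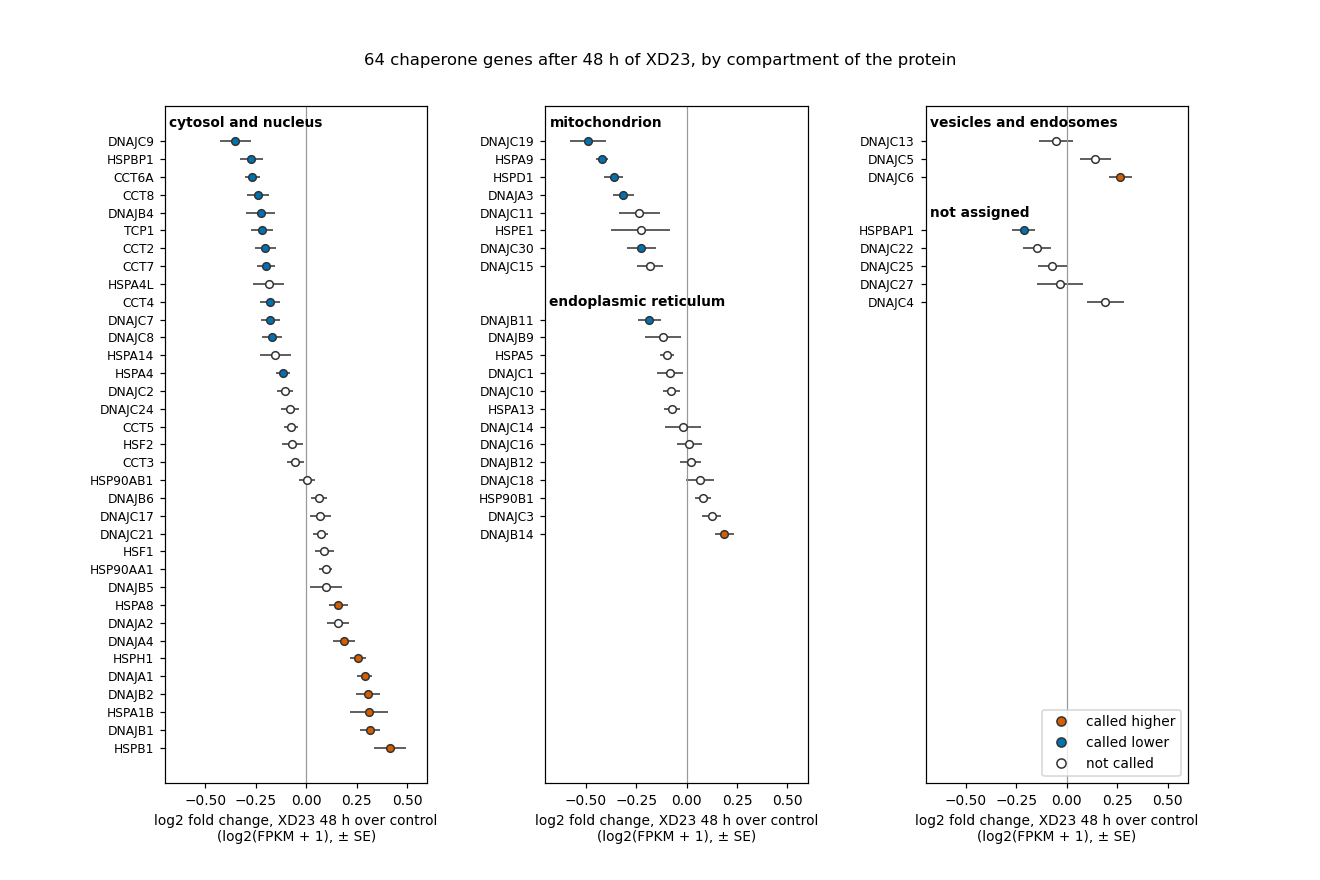
The log2 fold change of XD23 at 48 h over control, on log2(FPKM + 1), is plotted for each of the 64 genes with its standard error from limma (3 libraries per group), grouped by the compartment of the protein and filled by call. All 8 mitochondrial genes lie left of 0, while the cytosolic genes run from DNAJC9 at -0.35 to HSPB1 at 0.41.

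Most mitochondrial chaperones fell at 48 h. Of their 8 genes, 5 fell and 0 rose, the other 3 had log2 fold changes of -0.23 (DNAJC11 and HSPE1) and -0.18 (DNAJC15), and the median was -0.27. Of all protein-coding genes tested, 16.2% fell. In each of the 8 mitochondrial genes, the 3 libraries at 48 h lay below the 3 controls, which held for 27.7% of all genes. All 8 also had log2 fold changes below 0 under median-of-ratios scaling and quantile normalization, where 4 were called in each case. Their summed level was 213.7 ± 5.35 FPKM at 48 h and 276.4 ± 6.73 FPKM in control (SD, n = 3 each), a difference of -22.68%. At 24 h the sum was 272.2 ± 9.24 FPKM.

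HSPA9, the matrix HSP70 that pulls proteins through the import channel and folds them (chromosome 5, 138553756 to 138575724, minus strand, GRCh38), had 55.8, 54.6 and 54.7 FPKM at 48 h, against 75.7, 73.5 and 72.8 FPKM in control. The 24 h libraries had 74.8, 75.6 and 75.6 FPKM. The 48 h libraries stood well below the other 6, which overlapped with each other. The log2 fold change of 48 h over control was -0.42 ± 0.03 (limma, adjusted p = 5.84e-05), the smallest adjusted p among the 64 genes, and the call held in every alternative. HSPA8, the cytosolic HSP70 expressed without stress, exceeded HSPA9 by a ratio of FPKM of 8.60 ± 0.380 at 48 h and 5.73 ± 0.189 in control.

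HSPD1, the barrel of the matrix chaperonin (chromosome 2, 197486581 to 197516737, minus strand), had 109.7, 105.9 and 114.2 FPKM at 48 h and 147.7, 136.6 and 140.5 FPKM in control. Its log2 fold change was -0.36 ± 0.05 (limma, adjusted p = 0.000797), with no overlap between the groups. HSPE1, the lid of that barrel (chromosome 2, 197499994 to 197503457, plus strand), had 11.8, 11.1 and 11.5 FPKM at 48 h and 13.8, 12.7 and 14.4 FPKM in control. Its groups did not overlap either, yet its log2 fold change of -0.23 ± 0.15 was not called (limma, adjusted p = 0.283). The third 24 h library held 20.8 FPKM of HSPE1, above the 12.4 and 14.9 FPKM of the other 24 h libraries, and without that library the standard error was 0.07 and HSPE1 was called (adjusted p = 0.0315). The 15 pseudogene copies of HSPE1 in the table had a summed mean of 31.99% of its own mean, and its exons share 281 bases with those of HSPD1 on the other strand, so its reads are uncertain.

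Among the DNAJ partners of HSPA9, DNAJC19 and DNAJA3 fell. DNAJC15, a J protein of the import motor like DNAJC19, was not called (log2 fold change -0.18 ± 0.06, limma, adjusted p = 0.0626), and was called lower without the first or without the third 24 h library. DNAJC19, which stands at the inner membrane and starts the import motor, had 7.98, 7.11 and 7.61 FPKM at 48 h against 11.1, 10.7 and 11.3 FPKM in control, the largest fall among the 64 (log2 fold change -0.49 ± 0.09, limma, adjusted p = 0.00464). At 24 h it had 10.5, 10.3 and 13.5 FPKM, the last of these in the library that stood apart. DNAJC19 has 3 pseudogene copies with 18.03% of its mean, which makes its level less certain. DNAJA3, the matrix partner that hands clients to HSPA9, had 11.2, 10.9 and 10.7 FPKM at 48 h and 13.3, 14.8 and 13.5 FPKM in control (log2 fold change -0.31 ± 0.05, limma, adjusted p = 0.00232). DNAJC30, a small inner membrane protein, stood at 1.95 ± 0.264 FPKM at 48 h and 2.43 ± 0.142 FPKM in control, and its call at an adjusted p of 0.0498 (limma) was lost in 11 of 18 alternatives, including the omission of any control library, of the first or second 24 h library or of the first or second 48 h library. Without the third 24 h library all 8 mitochondrial genes were called lower. The number called in the other alternatives was 4 to 7. DNAJC30 shares 14.4% of its exon bases with BUD23 on the other strand.

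**Figure D2:**
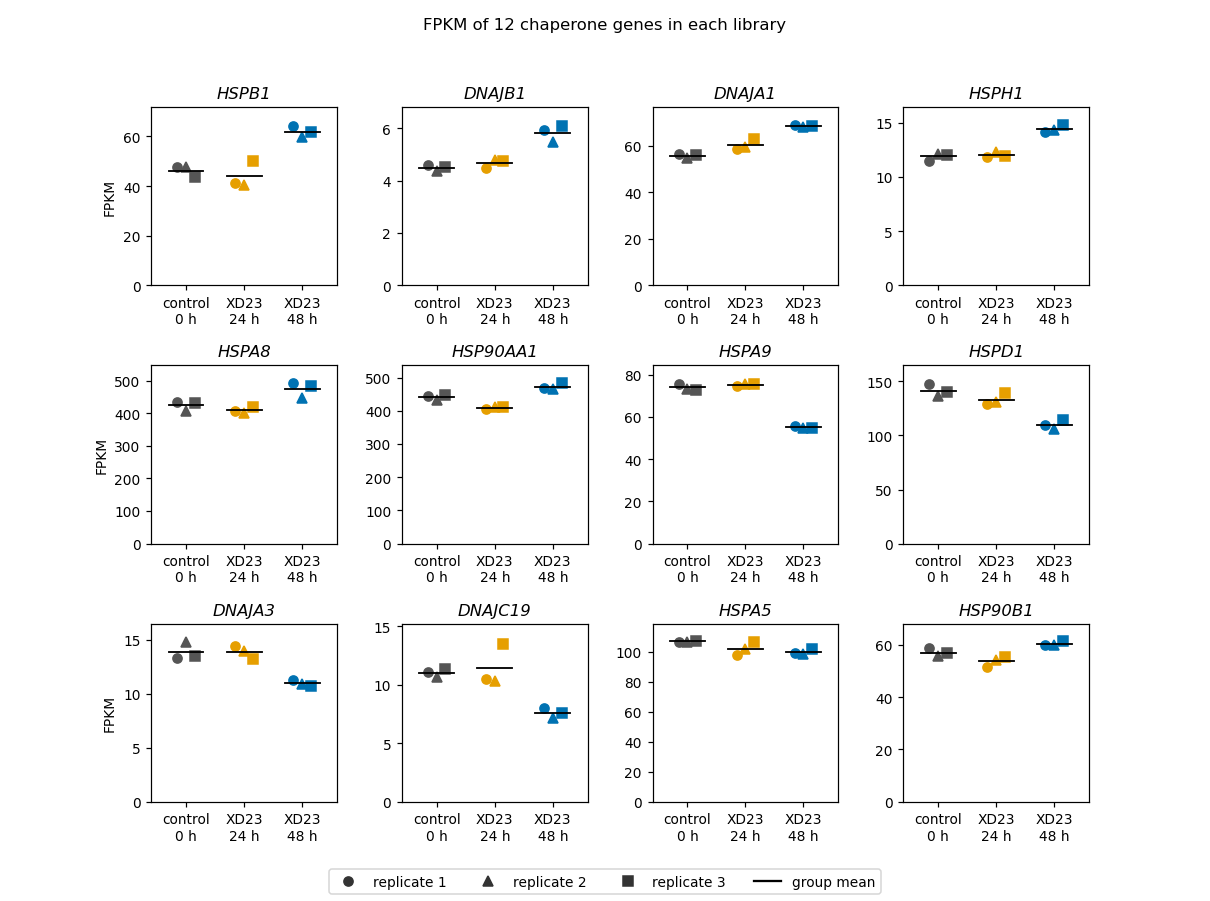
FPKM of 12 chaperone genes in the 9 libraries, with control at 0 h on the left, then XD23 at 24 h and 48 h; points are libraries, marked by replicate number, and lines are group means. HSPB1, DNAJB1, DNAJA1 and HSPH1 are higher in all 3 libraries at 48 h than in all controls, and HSPA9, HSPD1, DNAJA3 and DNAJC19 are lower.

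Genes that import or guard mitochondrial proteins, listed apart from the 64, showed falls as well. Of 20 tested, 8 fell and 0 rose at 48 h, with a median log2 fold change of -0.15. The share that fell was 40.0%, against 16.2% of protein-coding genes. LONP1, the main protease of the matrix, stood at 22.0 ± 0.685 FPKM at 48 h and 30.01 ± 0.770 FPKM in control (log2 fold change -0.43 ± 0.04, limma, adjusted p = 0.000232). TIMM44, which anchors HSPA9 to the import channel, fell by 0.36 ± 0.07 on the log2 scale, TRAP1, the HSP90 of mitochondria, by 0.28 ± 0.05, and TOMM40, the pore of the outer membrane, by 0.25 ± 0.04. Genes encoded in the mitochondrial genome took 28.75% to 29.47% of summed FPKM in the 48 h libraries and 27.29% to 28.90% in control.

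The CCT ring is built from TCP1 and the products of CCT2, CCT3, CCT4, CCT5, CCT6A, CCT7 and CCT8. At 48 h 6 of these 8 genes fell, 0 rose, and CCT3 and CCT5 were not called. Of all protein-coding genes tested, 16.2% fell. Summed over the ring, the level was 813.4 ± 24.3 FPKM at 48 h and 925.4 ± 21.8 FPKM in control (SD, n = 3 each), a difference of -12.1%, and 911.7 ± 41.3 FPKM at 24 h. All 8 had log2 fold changes below 0 except that CCT3 lay at 0.01 under quantile normalization, where 6 were called. Leaving out the first or the third control library or the second 48 h library left 3 called, and leaving out the third 24 h library 7.

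CCT6A (chromosome 7, 56051630 to 56063989, plus strand) changed most, with 161.1, 153.4 and 158.6 FPKM at 48 h against 193.9, 185.9 and 189.9 FPKM in control. Its log2 fold change was -0.27 ± 0.04 (limma, adjusted p = 0.00135). CCT8 followed at -0.24 ± 0.05, with 88.1, 88.8 and 93.8 FPKM at 48 h against 112.1, 100.2 and 107.6 FPKM in control. Both groups were separate in each gene, and CCT6A, CCT7 and CCT8 were called in every alternative but the fold threshold.

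CCT7 had 105.0, 104.3 and 112.2 FPKM at 48 h and 126.4, 120.7 and 122.5 FPKM in control (log2 fold change -0.20 ± 0.05, limma, adjusted p = 0.0115). TCP1, the founding subunit, had 54.3, 52.5 and 56.6 FPKM at 48 h and 65.0, 61.2 and 64.3 FPKM in control (-0.22 ± 0.05, adjusted p = 0.0151). The TCP1 call ended without the first or the third control library or the second 48 h library, with adjusted p up to 0.0585. TCP1 shares 397 exon bases with ACAT2 on the other strand, and without strand in the counting those reads cannot be told apart.

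CCT2 had 38.7, 37.1 and 39.6 FPKM at 48 h against 45.0, 43.7 and 44.5 FPKM in control (log2 fold change -0.20 ± 0.05, limma, adjusted p = 0.0208). CCT4, the most abundant subunit transcript, had 171.2, 163.8 and 177.4 FPKM at 48 h against 197.4, 191.6 and 192.0 FPKM in control (-0.18 ± 0.05, adjusted p = 0.0258). Neither gene's groups overlapped. The CCT2 call ended without the first or the third control library, without the first or second 48 h library and without the filter (adjusted p up to 0.0768), and the CCT4 call in the same cases, without the second control library and under median-of-ratios scaling (adjusted p up to 0.0923).

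The remaining subunits were not called. CCT5 had 120.7, 118.1 and 122.2 FPKM at 48 h and 128.2, 124.9 and 127.8 FPKM in control, with a log2 fold change of -0.08 ± 0.03 (limma, adjusted p = 0.132), and was called lower without the third 24 h library (adjusted p = 0.0412). Its groups did not overlap. CCT3 overlapped between the groups, with 75.1, 70.7 and 76.8 FPKM at 48 h and 78.4, 74.5 and 78.2 FPKM in control (-0.05 ± 0.04, adjusted p = 0.366). CCT4 was highest and CCT2 lowest of the subunits in every library, with 20.99% ± 0.210 of the summed ring for CCT4 at 48 h and 20.93% ± 0.260 in control, and 4.73% ± 0.030 for CCT2 at 48 h and 4.80% ± 0.040 in control. CCT6A took 19.40% ± 0.420 at 48 h and 20.52% ± 0.060 in control, and CCT5 took 14.80% ± 0.190 at 48 h and 13.72% ± 0.160 in control. FPKM compares genes per length, but the lengths the values imply differ from the exon lengths of GENCODE 29 for several genes, so order between genes is approximate.

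**Figure D3:**
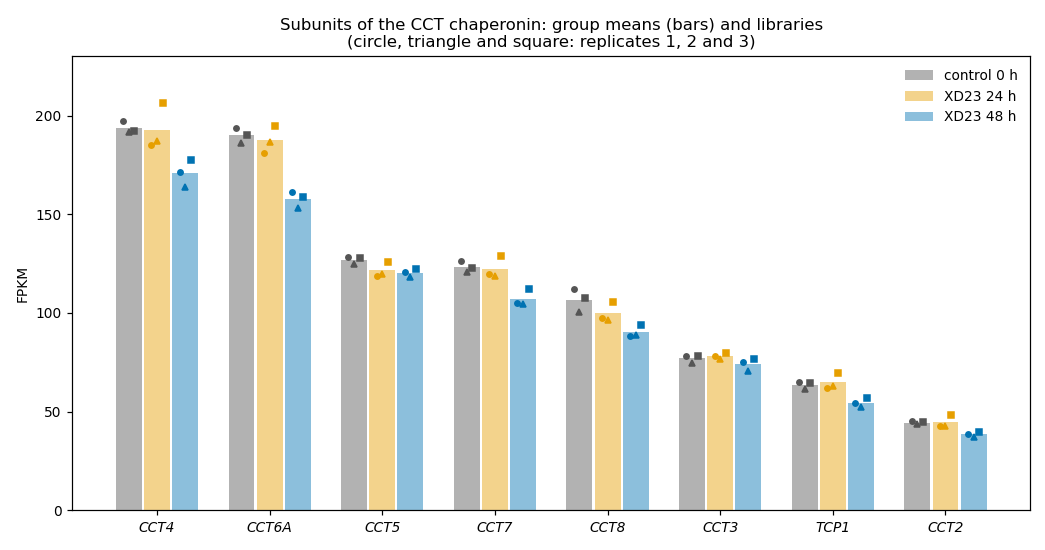
FPKM of the 8 subunit genes of the CCT chaperonin in control cells at 0 h and after 24 h or 48 h with XD23; bars are means of 3 libraries and points are libraries. In CCT4, CCT6A, CCT5, CCT7, CCT8, TCP1 and CCT2 all 3 points at 48 h lie below all 3 controls, and the third 24 h library lies highest of its group in every subunit.

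Few genes that work beside CCT were called. Of 16 tested genes for prefoldin, which delivers clients to the ring, and for other CCT partners, 2 fell and 0 rose at 48 h. The share called was 12.5%, against 32.0% of protein-coding genes. PFDN6, a prefoldin subunit, stood at 11.8 ± 0.142 FPKM at 48 h and 14.0 ± 1.04 FPKM in control, and TBCA, which takes up newly folded β-tubulin, at 38.6 ± 1.43 FPKM at 48 h and 44.9 ± 1.88 FPKM in control. The log2 fold change of PFDN6 was -0.23 ± 0.06 (limma, adjusted p = 0.0162) and that of TBCA -0.21 ± 0.05 (adjusted p = 0.0114). The PFDN6 call ended without the second 48 h library (adjusted p = 0.0546).

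Among the chaperones of the cytosol and nucleus other than CCT, calls went both ways. With CCT included, 8 of these 35 genes rose, 12 fell and 15 were not called, so 57.14% were called against 32.0% of protein-coding genes. The genes that rose were HSPB1, DNAJB1, HSPA1B, DNAJB2, DNAJA1, HSPH1, DNAJA4 and HSPA8. Those that fell beside the 6 CCT genes were DNAJC9, HSPBP1, DNAJB4, DNAJC7, DNAJC8 and HSPA4.

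HSPB1, the small heat shock protein HSP27 that keeps unfolded clients soluble (chromosome 7, 76302544 to 76304295, plus strand), had the highest log2 fold change of the 64 on the log2(FPKM + 1) scale. The ratio of mean FPKM was, however, larger in HSPA1B (1.43), a gene of low FPKM, than in HSPB1 (1.34). HSPB1 had 64.1, 59.9 and 61.8 FPKM at 48 h, against 47.6, 47.7 and 43.5 FPKM in control, with a log2 fold change of 0.41 ± 0.08 (limma, adjusted p = 0.00544). At 24 h it had 41.2, 40.6 and 50.3 FPKM, around the control values and highest in the library that stood apart. It was the only small heat shock protein among the 64, and the other 5 genes in the table with an HSPB symbol had means of at most 0.108 FPKM.

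DNAJA1, DNAJB1 and HSPH1, partners of cytosolic HSP70, rose. DNAJA1, a DNAJ protein that serves HSPA8 in everyday folding (chromosome 9, 33025211 to 33039907, plus strand), had 68.8, 67.9 and 68.3 FPKM at 48 h against 56.2, 54.9 and 56.2 FPKM in control (log2 fold change 0.29 ± 0.04, limma, adjusted p = 0.000699). The 24 h libraries of DNAJA1, at 58.4, 59.6 and 63.0 FPKM, lay between the other groups. DNAJB1, the HSP40 of the heat shock response (chromosome 19, 14514770 to 14529770, minus strand), had 5.93, 5.48 and 6.09 FPKM at 48 h against 4.602, 4.36 and 4.50 FPKM in control (0.32 ± 0.05, adjusted p = 0.00193). HSPH1, the HSP110 exchange factor that works with DNAJB1 on aggregates (chromosome 13, 31134974 to 31162388, minus strand), had 14.1, 14.3 and 14.8 FPKM at 48 h against 11.5, 12.1 and 12.05 FPKM in control (0.26 ± 0.04, adjusted p = 0.00154). In these 3 genes the groups did not overlap, and the calls held in every alternative but the fold threshold, which the DNAJB1 call passed too.

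DNAJB2, which sends HSP70 clients to degradation, had 4.67, 4.68 and 5.08 FPKM at 48 h against 3.35, 3.89 and 3.86 FPKM in control (log2 fold change 0.31 ± 0.06, limma, adjusted p = 0.00561). DNAJA4 stood at 3.99 ± 0.0396 FPKM at 48 h and 3.39 ± 0.2498 FPKM in control, and the call of DNAJA4 was lost in 7 of 18 alternatives, with the omission of the first or the third control library or of any 48 h library among them. DNAJA2, a paralog of DNAJA1, was not called (log2 fold change 0.16 ± 0.05, adjusted p = 0.0561), although its groups did not overlap, and was called higher in 7 of 19 alternatives, including under median-of-ratios scaling (adjusted p = 0.0497) and without the third 24 h library (adjusted p = 0.0124).

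The cytosolic HSP70 and HSP90 genes, the most abundant of the 64, changed little. HSPA8 (chromosome 11, 123057489 to 123063230, minus strand), whose promoter holds the elements shown above, had 492.2, 445.3 and 482.8 FPKM at 48 h against 435.0, 406.6 and 430.3 FPKM in control. The groups did not overlap, and the log2 fold change was 0.16 ± 0.05 (limma, adjusted p = 0.0366). The call ended in 10 of 19 alternatives, with adjusted p up to 0.143, including the omission of any control library, of the first or second 24 h library or of the first or of the third 48 h library. HSP90AA1, the stress-inducible cytosolic HSP90, had 468.8, 464.4 and 483.8 FPKM at 48 h against 444.6, 432.0 and 448.8 FPKM in control, with no overlap and no call (0.10 ± 0.03, adjusted p = 0.0575). It was called higher without the third 24 h library (adjusted p = 0.0277) and under median-of-ratios scaling (adjusted p = 0.0408). HSP90AB1, the constitutive form, overlapped between the groups, with 680.8, 648.3 and 690.7 FPKM at 48 h and 687.5, 670.3 and 654.0 FPKM in control (0.01 ± 0.04, adjusted p = 0.933). The sum over the CCT ring was 0.710 ± 0.0025 of the sum of HSP90AA1 and HSP90AB1 at 48 h and 0.832 ± 0.0113 of it in control.

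The strongly heat-inducible HSP70 genes had low FPKM. HSPA1B had 1.71, 1.77 and 1.57 FPKM at 48 h against 0.953, 1.11 and 1.45 FPKM in control, on 49 to 102 fragments per library (log2 fold change 0.31 ± 0.09, limma, adjusted p = 0.0387). At 24 h HSPA1B had 1.67, 1.67 and 1.47 FPKM, each above all controls, and was not called. The HSPA1B call was lost in 10 of 18 alternatives, with adjusted p up to 0.124, including the omission of the first or second control library, of the first or second 24 h library or of any 48 h library. Its near-identical copy HSPA1A had 0.811, 0.799 and 0.676 FPKM at 48 h against 0.570, 0.624 and 0.885 FPKM in control. Reads of such copies can be split, misplaced or left out by the counting, so both levels are uncertain and may be too low. HSPA6, which is transcribed under strong heat stress alone, had 0 to 6 fragments per library.

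The heat shock factors were not called. HSF1 had 11.8, 11.8 and 11.3 FPKM at 48 h against 10.4, 11.4 and 10.9 FPKM in control (log2 fold change 0.09 ± 0.05, limma, adjusted p = 0.197). HSF2 had 7.10, 7.88 and 7.36 FPKM at 48 h against 7.71, 7.61 and 8.25 FPKM in control (-0.07 ± 0.05, adjusted p = 0.372). Both genes overlapped between the groups. Of the 15 genes with a heat shock element of at most 1 mismatch, 6 rose (DNAJA1, DNAJA4, DNAJB1, HSPA1B, HSPA8 and HSPB1), 3 fell (DNAJB4, HSPA9 and HSPD1) and 6 were not called. Of the 6 with an exact element, DNAJA1 and HSPA8 rose, HSPD1 fell and 3 were not called. Among all protein-coding genes tested, 15.7% rose and 16.2% fell. The calls of DNAJA4, DNAJB4, HSPA1B and HSPA8 were each lost in 7 to 13 alternatives. A relation between the elements and the calls was not tested.

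Other targets of HSF1 and other co-chaperones outside the 64 also went both ways. Of 11 tested HSF1 targets, 4 rose and 1 fell at 48 h, so 45.45% were called against 32.0% of protein-coding genes. MRPL18, a mitochondrial ribosomal protein, was the 1 that fell (log2 fold change -0.22 ± 0.06, limma, adjusted p = 0.0297), a call that ended without any 1 of the control or 48 h libraries, without the filter and under median-of-ratios scaling, with adjusted p up to 0.0871. Of 20 tested co-chaperones of HSP70 and HSP90, 5 rose and 2 fell, a share of 35.0% called that is near the 32.0% of protein-coding genes. CHORDC1, which binds HSP90, rose by 0.28 ± 0.05 on the log2 scale, UNC45A, which guides HSP90 to myosin, by 0.26 ± 0.06, TOMM34, which links HSP70 and HSP90, by 0.23 ± 0.04, and AHSA1, the activator of HSP90, by 0.18 ± 0.04. BAG2, which inhibits the ubiquitin ligase of HSP70 clients, fell by 0.34 ± 0.06 (adjusted p = 0.00394). The lists share 5 genes, and 3 of those that rose, CHORDC1 and AHSA1 among them, stand in both. The AHSA1 call ended without the second control library (adjusted p = 0.0556).

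The cytosolic and nuclear genes that fell outside CCT include proteins with work of their own beside folding. DNAJC9, a chaperone of histones, had 8.83, 10.2 and 9.63 FPKM at 48 h against 13.2, 11.3 and 12.98 FPKM in control (log2 fold change -0.35 ± 0.08, limma, adjusted p = 0.00973). DNAJC9 shares 949 exon bases, 24.0% of its exons, with FAM149B1 on the other strand. HSPBP1 stood at 11.5 ± 0.138 FPKM at 48 h and 14.1 ± 0.7775 FPKM in control (-0.27 ± 0.06, adjusted p = 0.00812). DNAJC8, found with splicing factors, DNAJC7, which bridges HSP70 and HSP90, HSPA4, an HSP110, and DNAJB4 had log2 fold changes of -0.23 to -0.11, and their calls ended in 5 to 13 of 18 or 19 alternatives. For each of these 4 the omission of the first or the third control library or of the second 48 h library ended the call. So did the second control library for HSPA4, DNAJC8 and DNAJB4, the other 48 h libraries for HSPA4, DNAJC7 and DNAJB4, the second 24 h library for DNAJC8 and DNAJB4, and the first 24 h library for DNAJB4. The 8 genes of the cytosol and nucleus that were not called and are not described above had log2 fold changes of -0.19 (HSPA4L) to 0.10 (DNAJB5). Of these, DNAJB6 has 6 pseudogene copies whose summed mean was 129.58% of its own, so its level is uncertain.

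In the ER, 1 of 13 genes rose, 1 fell and 11 were not called, so 15.38% were called against 32.0% of protein-coding genes. HSPA5, the HSP70 of the ER known as BiP, had 99.4, 98.3 and 101.9 FPKM at 48 h against 106.5, 106.6 and 107.3 FPKM in control. The groups were separate, but the log2 fold change of -0.10 ± 0.04 was not called (limma, adjusted p = 0.0812), and it was called without the third 24 h library (adjusted p = 0.0218). HSP90B1, the HSP90 of the ER, stood on the other side of 0, with 60.0, 59.8 and 61.4 FPKM at 48 h against 58.8, 55.7 and 56.7 FPKM in control (0.08 ± 0.04, adjusted p = 0.154). It was called higher under quantile normalization (0.12 ± 0.03, adjusted p = 0.0188). These are the 2 genes whose promoters hold the ER stress response elements shown above.

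Among the DNAJ proteins of the ER, DNAJB9, a target of the unfolded protein response that represses its sensor IRE1, overlapped between the groups, with 7.40, 7.81 and 7.39 FPKM at 48 h and 8.68, 7.65 and 8.46 FPKM in control (log2 fold change -0.12 ± 0.09, limma, adjusted p = 0.378). DNAJB14, an ER membrane protein, rose by 0.19 ± 0.05 (adjusted p = 0.0158), a call that ended without the second control or the second 48 h library (adjusted p up to 0.057). DNAJB11, which brings clients to HSPA5, fell by 0.19 ± 0.06 (adjusted p = 0.0401), and the DNAJB11 call was lost in 9 of 18 alternatives, including the omission of any control library, of the first 24 h library or of the second or of the third 48 h library. The other 8 ER genes had log2 fold changes of -0.08 (DNAJC1) to 0.12 (DNAJC3) and were not called, although DNAJC3 was called higher under median-of-ratios scaling (adjusted p = 0.0465). Of 24 tested genes of ER folding and the unfolded protein response outside the 64, 6 rose and 3 fell. The share called was 37.5%, near the 32.0% of protein-coding genes. ERO1A, an oxidase that forms disulfide bonds, rose by 0.32 ± 0.04 (38.2 ± 1.71 FPKM at 48 h and 30.4 ± 0.280 FPKM in control), CALR, a lectin chaperone, by 0.31 ± 0.04, and MANF, a secreted ER stress protein, by 0.29 ± 0.07. SIL1, the exchange factor of HSPA5, fell by 0.30 ± 0.04. The MANF call ended without the second or the third control library, without the third 48 h library or without the filter (adjusted p up to 0.0633).

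Of 3 genes for vesicle and endosome proteins, DNAJC6, the auxilin that strips clathrin coats with HSPA8, rose, with 6.41, 6.17 and 6.32 FPKM at 48 h against 4.95, 4.97 and 5.31 FPKM in control (log2 fold change 0.27 ± 0.06, limma, adjusted p = 0.00874). DNAJC5 (0.14 ± 0.07) and DNAJC13 (-0.06 ± 0.08) were not called. Of the 5 genes with no compartment assigned, HSPBAP1 fell (-0.21 ± 0.06, adjusted p = 0.0233), a call lost without any 1 of the control or 48 h libraries and without the filter. The other 4 had log2 fold changes of -0.15 (DNAJC22) to 0.19 (DNAJC4) and were not called. By family, 1 of 24 DNAJC genes rose and 5 fell, 3 of 9 DNAJB genes rose and 2 fell, and 2 of 4 DNAJA genes rose and 1 fell. The shares called were 25.0% of DNAJC, 55.56% of DNAJB and 75.0% of DNAJA genes, against 32.0% of protein-coding genes.

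**Figure D4:**
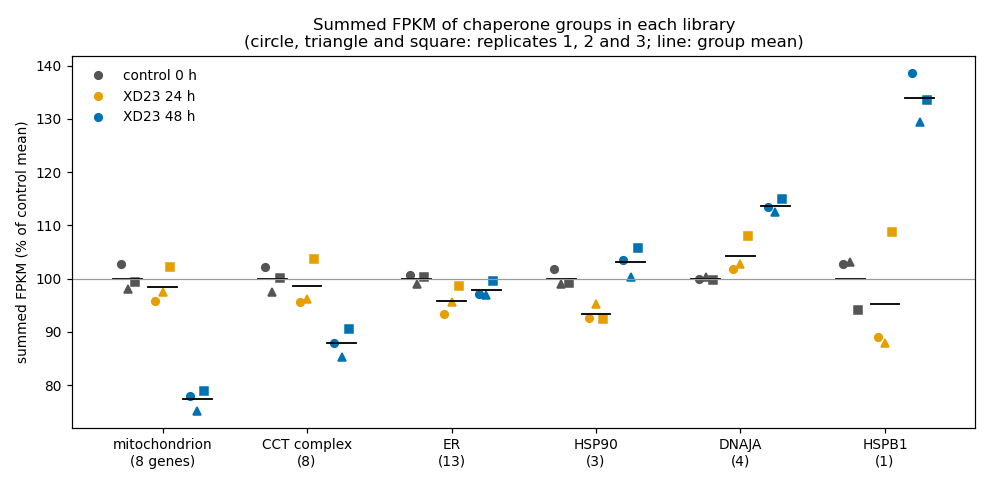
Summed FPKM of 6 groups of chaperone genes in each library, as a percentage of the mean of the control libraries; points are libraries and lines are group means, with control at 0 h on the left of each group and XD23 at 24 h and 48 h to its right. The mitochondrial sum at 48 h is 22.68% below the control mean and the CCT sum 12.1% below, while HSPB1 is 33.88% above. DNAJA3 counts in the mitochondrial and in the DNAJA sum, and HSP90B1 in the ER and in the HSP90 sum.

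At 24 h 0 of the 64 genes were called against control in limma's test, where 0.00732% of all genes were called (1 gene of 13657), and 0 were called in every alternative. At an unadjusted p under 0.05 there were 8 of the 64, and 7.43% of all genes. The lowest of these p-values belonged to DNAJC17, a protein of pre-mRNA splicing, with 1.99 ± 0.115 FPKM at 24 h and 2.47 ± 0.0649 FPKM in control (log2 fold change -0.21 ± 0.05, adjusted p = 0.476). Log2 fold changes of the 64 at 24 h ran from -0.21 (DNAJC17) to 0.27 (HSPA1B), with a median of -0.01. The HSP90 sum was 1092 ± 18.1 FPKM at 24 h and 1170 ± 18.6 FPKM in control (SD, n = 3 each), with HSP90AA1 at -0.11 ± 0.03 (adjusted p = 0.552).

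Between the treated groups, 14 of the 64 genes were higher at 48 h than at 24 h, 16 were lower and 34 were not called, where 32.3% of all genes were called, 16.0% higher and 16.3% lower. This comparison shares the 48 h libraries with that against control, so the counts are not separate evidence. Of the 8 mitochondrial genes 6 were lower and 0 higher, and of the 8 CCT genes 5 were lower and 0 higher, CCT8 being the subunit that was called against control and not here. Leaving out the second 48 h library left 2 of the CCT genes called. Without the third 24 h library 15 of the 64 genes were higher and 15 lower, where 33.6% of all genes were called. In that fit DNAJC18 and DNAJC21 were called higher and DNAJC11 lower, while DNAJB5, DNAJC8 and HSPA4 were no longer called. HSP90AA1 and HSP90B1 were higher at 48 h than at 24 h, although neither was called against control.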

How the data were processed

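The authors deposited FPKM for 36810 genes, 1 column per library. The submitters' processing notes name HISAT2, featureCounts, Subread, DESeq2 and hg38. The sources used here give no version, strand setting or annotation release. Library totals were worked out from the steps between FPKM values: with GENCODE 29 exon lengths, 20926 genes (58.8% of those in GENCODE) gave whole fragments to within 0.001 in every library, 14 of the 64 members among them. Values of 0 count as whole in that share. Of the values above 0, 50.75% to 51.6% were whole in each library. For the other 50, lengths were searched upwards until all libraries gave whole fragments, so their fragment numbers are estimates. Gene types, coordinates and exon overlaps come from GENCODE 29 (GRCh38), promoters from RefSeq (GRCh38.p14).

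Genes with at least 1 FPKM in at least 3 libraries (13657) were tested on log2(FPKM + 1), which understates changes of low genes. The 3 group means were estimated in a single model of the 9 libraries (limma 3.58.1, R 4.3.3, eBayes with trend, 6 residual degrees of freedom), and checked on simulated data. P-values are two-sided, adjusted over all genes tested; errors are standard errors beside fold changes and SD (n = 3) beside FPKM. The 64 genes, their compartments and the 5 lists of 86 tested related genes were chosen with earlier results of these data known. Values are given for the 10 called members with the largest change at 48 h, any called at 24 h, the 5 most abundant, a fixed set of well-known members, and up to 4 called genes per list, 1 of which is not reported here; other genes were named after their values were seen. The alternatives were 2 other pseudocounts, no filter, a filter at 5 FPKM, 2 other scalings, no trend, array weights, a fit to the 2 groups compared, a replicate block, leaving out each library, and a minimum absolute log2 fold change of 0.3.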

Additional observations from a re-analysis of the deposited data

Results flagged for a closer look

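The results below were selected because the change against control differed between the 2 times: each gene, named by the rule for members, was called between 48 h and 24 h in the test of that difference itself (limma, all 9 libraries). Both groups had XD23 and no untreated cells are named for either time, so the compound and the time in culture cannot be told apart here either. Log2 fold changes are those of 48 h over 24 h, and the comparison shares its 48 h libraries with that against control.

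In mitochondria, HSPA9 had 55.02 ± 0.673 FPKM at 48 h and 75.4 ± 0.476 FPKM at 24 h (log2 fold change -0.45), DNAJC19 7.57 ± 0.438 and 11.4 ± 1.79 FPKM (-0.53), DNAJA3 10.9 ± 0.256 and 13.8 ± 0.6001 FPKM (-0.31) and HSPD1 109.9 ± 4.16 and 133.0 ± 5.30 FPKM (-0.27). In CCT, the log2 fold changes were -0.25 for CCT6A and TCP1, -0.20 for CCT2, -0.19 for CCT7 and -0.17 for CCT4. The third 24 h library, which stood apart, lay above every other library in DNAJC19 and in these CCT genes. Over the alternatives the log2 fold change ran from -0.594 to -0.408 for DNAJC19 and from -0.278 to -0.184 for TCP1. The CCT4 call ended without the first or second 48 h library, in the fit to the 2 groups and without the filter (adjusted p up to 0.101), the CCT2 call without the second 48 h library and in the fit to the 2 groups (adjusted p up to 0.0702), and the CCT7 call without the second 48 h library (adjusted p = 0.0505).

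On the other side, HSPB1 had 61.9 ± 2.11 FPKM at 48 h and 44.0 ± 5.44 FPKM at 24 h (0.49), and DNAJB1 5.83 ± 0.319 and 4.66 ± 0.163 FPKM (0.27). HSPH1 was higher by 0.24, DNAJB2 by 0.22, HSPA8 and HSP90AA1 by 0.21, DNAJA1 by 0.18 and HSP90B1 by 0.17. The DNAJB2 call ended without the second 24 h or the third 48 h library or without the filter (adjusted p up to 0.0672), and the HSPA8 call without the filter (adjusted p = 0.0501). DNAJC9 was lower by 0.31 (log2 fold change -0.31), a call that ended without the first 48 h library (adjusted p = 0.0559).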

How the results depend on the processing

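Of the 10 members that rose and 19 that fell at 48 h against control, 6 and 9 were called in every alternative that tested them, other than the minimum absolute log2 fold change of 0.3, which by its construction lowered all counts: to 4 higher and 5 lower members, 0 CCT genes, and 3 higher and 3 lower of the related lists at 48 h against control, and to 3 higher and 6 lower members, 0 CCT genes, and 5 higher and 4 lower of the lists at 48 h against 24 h. With that minimum 14.5% of all genes were called at 48 h against control and 17.1% at 48 h against 24 h. Without the filter on low values 12 members fell at 48 h against control (7 rose), where 7.82% of 36810 genes were called. In that setting 10 list genes were lower at 48 h than at 24 h, where 9.01% of all genes were called. Array weights called 19 list genes higher at 48 h against control, where 38.3% of all genes were called. The fit to the 2 groups compared called 3 CCT genes lower at 48 h against 24 h, where 25.5% of all genes were called. The cause was not tested. Leaving out each library in turn gave, at 48 h against control, 7 to 12 members higher and 9 to 24 lower, 3 to 7 CCT genes lower, and 7 to 19 list genes higher and 8 to 21 lower, and at 48 h against 24 h, 2 to 5 CCT genes lower and 9 to 18 list genes lower; those fits have fewer samples. In the fits that left out a library, 18.9% to 37.6% of all genes were called at 48 h against control. At 48 h against 24 h these fits called 21.9% to 33.6% of all genes. No sign of a called value turned in any of these settings. Whether the replicate numbers pair the libraries was not settled. Same-numbered libraries had correlations of their deviations of -0.06 to 0.24, and differently numbered ones of -0.19 to 0.13. The highest was between the third 24 h and the third 48 h library, and not every library correlated best with its own number. Deviations from a mean of 3 libraries are tied to each other within a group, so these correlations cannot decide it. A replicate block gave 9 higher and 17 lower at 48 h against control, 0 at 24 h, and 13 and 17 at 48 h against 24 h. With that block 27.3% of all genes were called at 48 h against control and 31.8% at 48 h against 24 h. Few fragments were counted for HSPA1B and HSPA1A, with fewer than 110 per library.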
